A study of Rattus norvegicus with 6 samples.

Results

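Gene-end peaks are the rows of the authors' annotated peak table whose feature is given as 3' UTR, or as Downstream, the table's word for a position up to 3 kb past the end of a transcript. There were 1017 of them among 159452 annotated peaks (0.638%, exact 95% binomial interval 0.599 to 0.678). Of these, 395 lay in a 3' UTR and 622 were Downstream: 183 less than 1 kb past the end, 188 at 1 to 2 kb and 251 at 2 to 3 kb. The members were chosen by position alone, so the signal of the peaks played no part in the choice.

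The peaks come from chromatin immunoprecipitation and sequencing (ChIP-seq) of PC12 cells, a rat adrenal pheochromocytoma line, at passages 18 to 20. One line stably expressed human α1ACT (titled Q11) and the other stably carried the empty pCDNA3 vector (EV), and each gave an M2 library (M2 being an anti-FLAG antibody per the protocol), a library with an antibody called 1804 and an input, 6 libraries in all. The labels do not say what 1804 recognises, or whether either line is 1 clone. Every gene-end peak belongs to the 1804 library of the α1ACT line, and with 1 library per group no value below has a replicate error. No test between conditions was therefore made, the read depth is unknown, and the intervals given cover counting error only. Neighbouring peaks, and peaks of 1 gene, are not independent of each other.

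α1ACT is a transcription factor translated from the CACNA1A transcript, the same messenger RNA that encodes the pore-forming subunit of a neuronal calcium channel. A 3' UTR is the stretch of a messenger RNA between the stop codon and the poly(A) tail, where microRNAs and RNA-binding proteins act on RNA stability and translation. RNA polymerase II runs past the site where the RNA is cleaved before it leaves the DNA, so the DNA just downstream of a gene is also transcribed. ChIP-seq reads the DNA of these stretches and not the RNA, and a peak there places precipitated chromatin at the gene's end without telling which gene, if any, it acts on.

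The table names for each peak the gene with the nearest transcription start site (TSS). For 6 gene-end peaks that gene was a microRNA gene, although each of these peaks lay at the end of a longer gene. A microRNA finds its targets by pairing bases 2 to 8, its seed, with sites in the 3' UTR of other genes' RNA, and the seed groups microRNAs into families. The mature sequences are shown to make that distinction visible: they name what the table assigned, not what was precipitated. They are from RefSeq (GRCr8), read 5' to 3', with the seed in capitals, and the 5p strand is given where there are 2; these genes were picked out after their values were seen.

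rno-miR-33-5p: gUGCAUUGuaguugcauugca
rno-miR-26b-5p: uUCAAGUAauucaggauaggu
rno-miR-339-5p: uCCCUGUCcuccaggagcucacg
rno-miR-3065-5p: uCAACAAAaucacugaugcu
rno-miR-218b: cAUGGUUAgaucaagcacaa

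The peak listed for Mir33 lay in the 3' UTR of its host gene Srebf2, which encodes a master regulator of cholesterol synthesis, and had a signal of 2.43. The peak listed for Mir26b lay 593 bp past the end of its host gene Ctdsp1, a phosphatase of the RNA polymerase II tail, with a signal of 3.59, and that for Mir339 lay 951 bp past the end of LOC498154, with 4.59. Thus in these 3 cases the gene whose end held the peak also contained the microRNA. Mir3065, which lies within the kinase gene Aatk, was named for a peak in the 3' UTR of Aatk (signal 2.45) and for one 629 bp past the end of Baiap2 (3.70). The peak named for Mir3565, the gene of miR-218b within the axon guidance gene Slit2, lay 2881 bp past the end of another gene, Kcnip4 (4.22), and -173533 bp from the TSS of Mir3565, the minus sign marking a position upstream.

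The microRNA cases are instances of a wider split between the gene named and the gene whose end holds a peak. The holder of a peak is here the listed gene whose model contains a 3' UTR peak near its end, or ends up to 3 kb before a Downstream peak. A holder was found for 976 of the 1017 peaks (96.0%), in 857 genes, and 41 peaks had none among the models of the table. The holder was the assigned gene for 653 peaks (66.9%) and another gene for 323. In 191 of those 323 the peak lay upstream of the TSS of the gene named, and in 132 downstream of it. The split was wider for 3' UTR peaks, where holder and assigned gene were the same for 210 of 373 (56.3%), than for Downstream peaks, where they were the same for 443 of 603 (73.5%). At 45 peaks the ends of at least 2 genes qualified, and the nearest end was then taken as the holder. For 19 of the 323 peaks the assigned gene's own end qualified too, and for 304 no listed end of the gene named did. Transcripts absent from the listed models could still place some of these 304 at the end of the gene named. Below, "assigned" means named by the table and "end of" refers to the holder.

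The annotated table, deposited by the authors, gave 878 assigned genes: 856 were protein coding in RefSeq, 5 were microRNA genes and 4 were long non-coding RNA genes, with 868 matched by gene ID. Of the 878, 761 were assigned 1 gene-end peak, 101 were assigned 2, and 16 were assigned 3 or more. Over all 14390 genes of the table, 6.10% were assigned a gene-end peak.

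Gene ends held few high peaks in absolute terms, but a larger fraction of their own peaks was high than at introns or between genes. The signal, the authors' own value per peak, ran from 2.01 to 21.6 over the gene-end peaks, with a median of 3.18 (95% interval of the median 3.18 to 3.25), against 3.02 over the whole table. Of the 1017 peaks, 430 had a signal under 3 and 8 one over 10. Many values were shared: 617 members had the same signal as another member. The median was 3.45 at exons, 3.00 at introns, 2.98 between genes (distal intergenic) and 4.03 at promoters.

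The upper tail set the classes further apart than the medians did. By definition 10.0% of all annotated peaks fell in the upper 10% by signal, above 5.28. Among gene-end peaks 145 did (14.3%, 12.2 to 16.6). The share was 17.0% (13.4 to 21.0) for 3' UTR peaks and 12.5% (10.0 to 15.4) for Downstream peaks. Exonic peaks had 18.4%, intronic peaks 8.46%, distal intergenic peaks 7.89% and promoter peaks 32.5%. Gene-end peaks thus stood between the exonic and the intronic class, with 3' UTR peaks near exonic ones, and these differences have counting intervals but no replicate check.

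**Figure D1:**
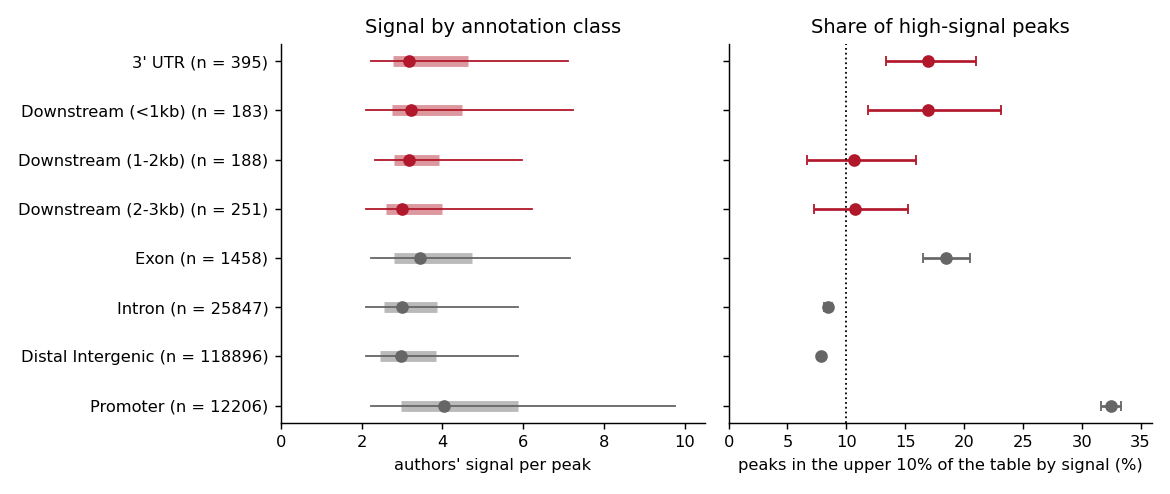
Signal by annotation class in the α1ACT 1804 library. Left, authors' signal per peak: dot, median; thick bar, middle 50% of peaks; thin line, 5th to 95th percentile. Right, percent of each class in the upper 10% of the table by signal, with exact 95% binomial intervals; the dotted line is the 10.0% of the whole table. Gene-end classes are red, and 3' UTR peaks and Downstream peaks under 1 kb lie near exonic peaks, at 17.0% and 16.9% against 18.4%.

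Among Downstream peaks the share was 16.9% (11.8 to 23.2) under 1 kb, 10.6% at 1 to 2 kb and 10.8% at 2 to 3 kb. The medians were 3.23, 3.18 and 2.99. The 3 intervals of the share overlap, so at this number of peaks the difference between the first stretch and the others is not separated from counting error. Where the Downstream class stops, no step was visible. The 251 peaks 2 to 3 kb past an end had a median of 2.99, and the 510 distal intergenic peaks 3 to 4 kb past a listed end had 3.16, with 10.8% and 10.2% in the upper 10%.

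By distance from the nearest TSS, the share of high peaks showed no steady course at gene ends. Gene-end peaks lay at least 3012 bp from the TSS of the assigned gene, since nearer peaks are annotated as promoter. At 3 to 5 kb 13.1% were in the upper 10%, at 5 to 10 kb 16.4%, at 10 to 30 kb 12.9%, at 30 to 100 kb 15.6% and beyond that 13.6%. This was not particular to gene ends: exonic peaks had 20.8%, 20.4%, 16.2%, 18.1% and 18.2% in the same bins. Intronic peaks went from 12.8% at 3 to 5 kb to 6.96% beyond 100 kb, and distal intergenic peaks from 11.0% to 7.31%. The gene-end and intronic intervals overlapped at 3 to 5 kb (8.65 to 18.7 and 10.6 to 15.3), barely at 5 to 10 kb (11.98 to 21.6 and 9.38 to 12.14), at 10 to 30 kb (9.70 to 16.8 and 8.81 to 10.3) and beyond 100 kb, where 6 of 44 gene-end peaks gave 5.17 to 27.4. At 30 to 100 kb they did not overlap (10.4 to 22.0 and 7.72 to 8.90). In that bin 17 of 71 3' UTR peaks were in the upper 10% (23.9%, 14.6 to 35.5). Of the Downstream peaks 9 of 96 were (9.38%, 4.38 to 17.1), an interval that overlaps the intronic one.

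Gene ends were not sites where peaks gathered. Around the ends of 14390 genes, the first 500 bp past the end held 341 peaks (exact Poisson interval 306 to 379) and the last 500 bp inside held 484 (442 to 529), where 500 bp stretches 5 to 10 kb away held a mean of 505. The stretch just past the end thus had 0.675 times that mean and was the lowest of all 500 bp bins out to 10 kb, which reached at most 543. The last 500 bp inside the gene had 0.958 times it. At gene starts, counted in the same way, the first 500 bp held 4547 peaks, 10.4 times the mean of 437 found 5 to 10 kb from the TSS. Each gene counted is in the table because a peak had its TSS as the nearest. The genes were thus chosen by peaks relative to their starts and not their ends, which limits the comparison of starts with ends. All annotated peaks enter these counts, whatever their class. When promoter peaks were left out, the lowest bin was -4000 to -3500 bp from the end, with 185 peaks (159 to 214). The first 500 bp past the end then held 198 (171 to 228).

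**Figure D2:**
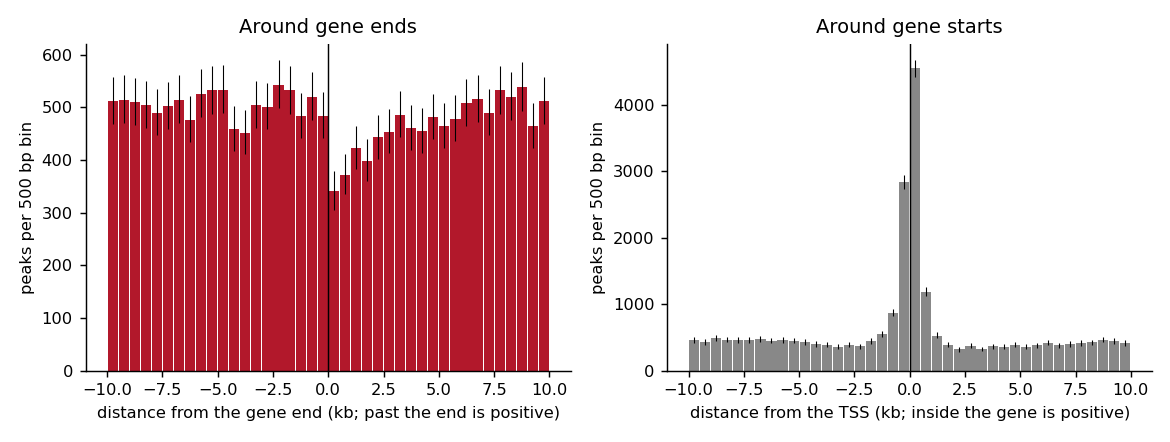
Annotated peaks of the α1ACT 1804 library per 500 bp bin around the ends (left) and the TSSs (right) of 14390 genes, out to 10 kb, with exact 95% Poisson intervals as thin lines. The axes of the plots differ. The first bin past the end is the lowest on the left, at 341 peaks, and the first bin inside the gene is the highest on the right, at 4547.

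Over all annotated peaks, the count just past the end was below that far from it in each of 4 classes of gene length. The ratio of the first 500 bp past the end to the mean 5 to 10 kb away was 0.725 for models under 5 kb, 0.801 at 5 to 20 kb, 0.545 at 20 to 60 kb and 0.501 over 60 kb, where 35 peaks stood against a mean of 69.8. Without promoter peaks the ratios were 0.205, 0.894, 0.583 and 0.582. At 5 to 20 kb the interval of the 94 peaks then counted (76.0 to 115) held the mean of 105, and under 5 kb much of the stretch past the end is itself in the promoter class. The parts played by mappability and base composition in this dip were not tested, since no genome of the files' build, rn5, was used here.

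The 3' UTR peaks lay near the end of their holder by definition, since holders were searched only within 5000 bp of the end. The median distance inside the end was -511 bp (minus marking the inside), with the middle 50% between -1158 and -241 bp. High and low peaks were found on both sides of the boundary. In the last 500 bp, 32 of 171 3' UTR peaks were in the upper 10% (18.7%), and in the first 500 bp past it 13 of 80 were (16.3%).

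**Figure D3:**
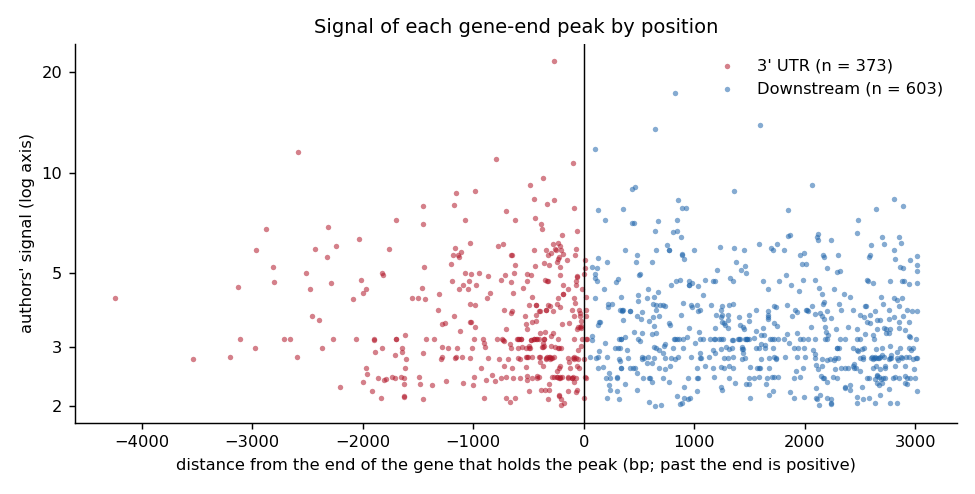
Signal (log axis) of the 976 gene-end peaks with a listed holder, by distance from the holder's end in bp; 3' UTR peaks are red and Downstream peaks blue. Most peaks of either class lie under a signal of 5, and the 8 peaks over 10 lie on both sides of the end; rows of points at equal height are the shared signal values.

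The 3' UTR peak with the highest signal lay at the end of Robo3, an axon guidance receptor of commissural neurons, on chromosome 8 from 39893923 to 39893978 (rn5), at -272 bp from the gene's end. Its signal of 21.6 was above 99.97% of the annotated peaks. The table assigned it to the neighbour Robo4, a receptor of the same family in blood vessels. Next came the 3' UTR of Fam172a with 11.5 (chromosome 2 from 5528386 to 5528441), assigned to Nr2f1, an orphan nuclear receptor whose TSS was 34711 bp away. In both cases the gene named was therefore not the gene that held the peak.

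The homeobox genes Nkx6-3 (signal 11.0) and Hmx1 (8.34) each held a peak in their own 3' UTR, at -789 and -448 bp from it. Kcnk12, which encodes a potassium channel subunit, held one of 10.7, assigned to the epithelial adhesion gene Epcam. Rimbp2, whose protein ties calcium channels to the presynaptic release site, held one of 8.84, assigned to the germ-line gene Piwil1.

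Another 4 holders had 3' UTR peaks among the 10 highest. Lemd2, of the inner nuclear membrane, held a peak of 9.62, and Rtn2, a reticulon of the endoplasmic reticulum, one of 8.29. Vps37b, a subunit of the endosomal sorting complex ESCRT-I, held one of 8.66 that was assigned to Hip1r, an adaptor between clathrin and actin. Fam163b held one of 9.16. Of the 10 highest 3' UTR peaks, those of Nkx6-3, Lemd2, Fam163b, Hmx1 and Rtn2 were thus assigned to the gene that held them.

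Past the gene end, the highest peak lay 823 bp downstream of Eif6, a factor of large ribosomal subunit assembly, with a signal of 17.3 (chromosome 3 from 157721228 to 157721283). Socs4, a suppressor of cytokine signalling, had one 1591 bp past its end with 13.9, assigned to Mapk1ip1l. Sertad1, a cell-cycle regulator that binds CDK4, had one 642 bp past its end with 13.5. Bad, which encodes a pro-apoptotic BCL2 family protein, had one 99 bp past its end with 11.8.

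Further high Downstream peaks were those of Prr19 (signal 9.15), Dda1, a subunit of ubiquitin ligases (8.93), and Epas1, which encodes the hypoxia-inducible factor HIF-2α (8.83). The peaks assigned to Fibp (9.98) and Lzts2 (9.09) had no holder among the listed models. Each of these 2 lay upstream of the TSS of the gene named.

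Some genes were assigned several gene-end peaks. Peaks at the end of 1 gene lie near each other by the definition of the class, and most genes below were picked for their number of peaks. Dda1 had the most, 5 peaks within 2036 bp: 2 in the 3' UTR with signals of 5.35 and 3.87, and 3 past the end with 7.73, 8.93 and 2.63. Mknk2, a kinase that phosphorylates the translation factor eIF4E, had 4 peaks, with 2.21 and 5.85 inside and 3.87 and 2.69 past the end. Rtcb, the tRNA ligase, had 4 within 842 bp, all past the end, with 5.93, 5.33, 3.33 and 2.92. High and low peaks thus occurred side by side at 1 gene end.

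Celf5, an RNA-binding splicing regulator, had 3 peaks in its own 3' UTR (4.56, 4.33 and 3.30) and was assigned another at the end of Ncln (2.43). Vom1r56, a vomeronasal receptor gene, had 4 peaks, but its models are listed on chromosomes 1 and 2 and it belongs to a multigene family whose copies can share reads, so its peaks are uncertain. Bad had 3 peaks, 1 inside its end with 2.23 and 2 past it with 11.8 and 2.61, and Txnip, the thioredoxin-interacting protein gene, had 3 between 2.95 and 3.18; Txnip was picked out after its values were seen.

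**Figure D4:**
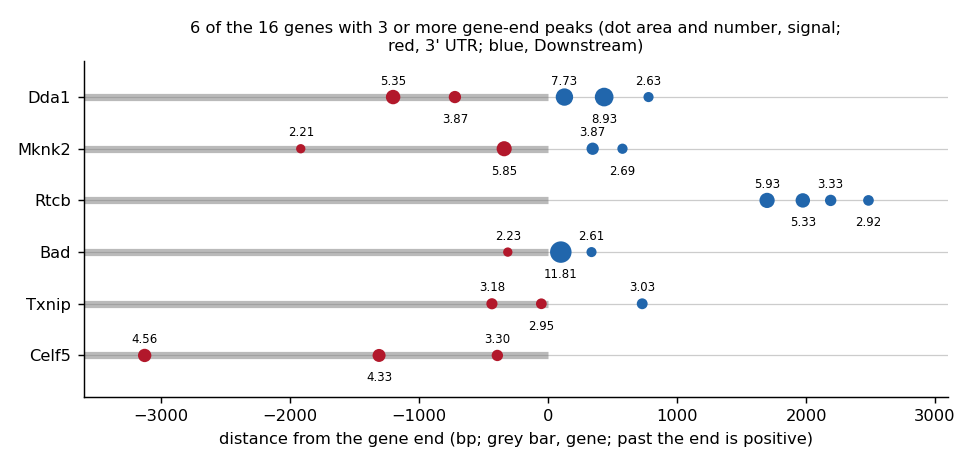
Gene-end peaks of 6 of the 16 genes with 3 or more, by distance from the gene's end in bp; the grey bar is the gene, dots are peaks with area and number giving the authors' signal, red in the 3' UTR and blue Downstream. Dda1 and Mknk2 have peaks on both sides of the end, Rtcb past the end only and Celf5 inside only (its peak at the end of Ncln is not drawn).

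A 3' UTR and a Downstream peak were both held by 22 of the 857 holders (2.57%). These were 6.15% (3.89 to 9.16) of the 358 holders of a 3' UTR peak and 4.22% (2.66 to 6.32) of the 521 holders of a Downstream peak, where 3.62% of all genes held a Downstream peak and 2.49% a 3' UTR peak. Another annotated peak lay within 1000 bp of 254 gene-end peaks (25.0%, 22.3 to 27.8), where 52.8% of all annotated peaks had one. The share was 18.5% for 3' UTR and 29.1% for Downstream peaks, against 16.9% at exons, 43.3% at introns and 55.6% between genes. Gene-end peaks thus lay singly more often than intronic or intergenic ones. Those with a neighbour had 19.3% (14.6 to 24.7) in the upper 10% by signal and the 763 others 12.6% (10.3 to 15.1).

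How often genes with a gene-end peak also had a TSS peak depended on which gene was counted. Of the 878 assigned genes, 378 (43.1%, 39.7 to 46.4) had a peak within 1000 bp of the TSS, where 43.2% of all genes of the table did. Of the 857 holders, 428 did (49.9%, 46.5 to 53.3), and of the 358 holders of a 3' UTR peak 211 (58.9%, 53.6 to 64.1). A holder to which the peak was not assigned is in the table only through its other peaks, so the holders' shares are not independent of how they were found. Among assigned genes the share was 49.5% (44.3 to 54.6) for a 3' UTR peak and 39.4% (35.3 to 43.7) for a Downstream peak. Counting only genes that were both assigned and holder, the shares were 52.0% (44.8 to 59.1) and 38.8% (33.9 to 43.9). The genes of the first set were longer, with a median model of 12774 bp against 9603 bp, and genes under 5 kb had a TSS peak in 32.0% of cases over the whole table. The part of gene length in this difference was not tested within each kind.

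**Figure D5:**
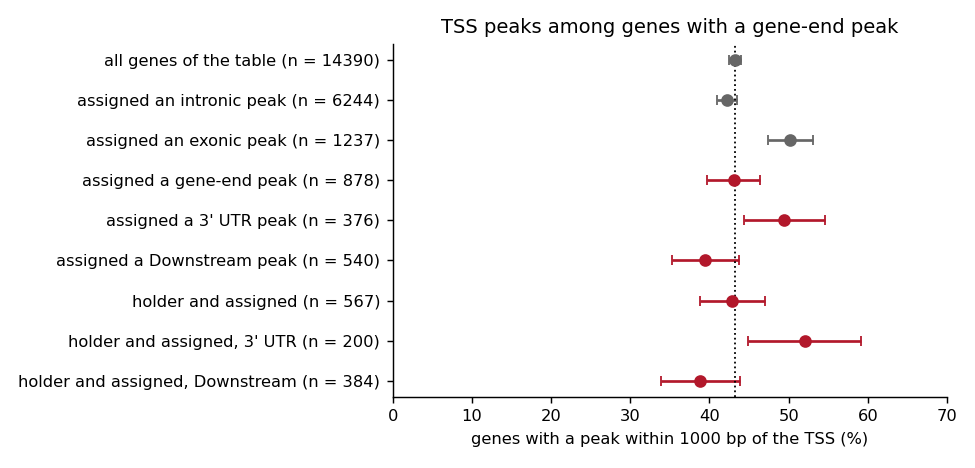
Percent of genes with a peak within 1000 bp of the TSS, with exact 95% binomial intervals, for gene sets of the annotated table; the dotted line is the 43.2% of all genes. Genes assigned a gene-end peak sit on the line at 43.1%, those assigned a 3' UTR peak at 49.5% and those assigned a Downstream peak at 39.4%.

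Where a gene held an end peak and also had a TSS peak, the TSS peak was usually the higher. This was so in 304 of 428 genes (71.0%, 66.5 to 75.3), with a median signal of 5.01 at the TSS and 3.27 at the end, taking the highest peak at each. The end was higher in 124. Socs4 had 13.9 at the end and 3.46 at the TSS, Bad 11.8 and 3.90, Fam172a 11.5 and 2.84, and Sertad1 13.5 and 5.36, so for these genes the order was turned. Gene-end peaks whose holder had a TSS peak were in the upper 10% in 17.7% of cases (14.4 to 21.4), and those whose holder had none in 10.9% (8.29 to 14.0). The limit on holders given above applies to these shares too.

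Btg1, Grn and Atp2b2 have been described as α1ACT targets, and of these Grn, which encodes the lysosomal growth factor progranulin, had gene-end peaks while the other two had 0. It had 2, on chromosome 10 from 90172560 to 90172615 (signal 2.15, 849 bp past the end) and from 90173345 to 90173400 (3.26, 1634 bp past the end). The first was above 6.27% of annotated peaks and the second above 59.6%. Btg1, an antiproliferative gene, has a model of 2258 bp, wholly within the promoter class, so it could hold no 3' UTR peak; it had 4 TSS peaks, the highest with 10.1. The nearest peak to the end of Btg1 was 1496 bp from it, that of the calcium pump gene Atp2b2 152685 bp and that of Cacna1a, the host gene of α1ACT, 170011 bp.

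Over 20 lists of genes by function, the share of genes assigned a gene-end peak stayed near the 6.10% of all genes in most. The exact 95% interval held that value for 18 lists, lay above it for 1 and below it for 1. The list above was that of immediate early genes, which respond within minutes to growth factors and calcium: 7 of 47 (14.9%, 6.20 to 28.3). It rests on low peaks, with a median of 2.43. Of the 47 immediate early genes, 4 held a peak at their own end, where 857 of all 14390 genes did. Among these 4 were the phosphatase Dusp1 (3.18) and the clock gene Per1 (3.18). The peak assigned to Zfp36l1, an mRNA decay factor, lay at the end of Actn1 (4.88). With only genes whose own model ends near the peak the share was 8.51% (2.37 to 20.4), an interval that holds the 4.29% of all genes under the same limit.

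The list below was that of olfactory receptors, with 35 of 828 genes (4.23%, 2.96 to 5.83), led by Olr646 (6.53) and Olr83 (5.68). All 42 of their gene-end peaks lay 2 to 3 kb past the end, since a gene this short has its whole length and the first stretch past it in the promoter class. Among all listed genes, 2478 (17.2%) had a longest model under 3 kb, and 0 of them held a 3' UTR peak. The 8 vomeronasal receptors of 169 (4.73%) had 9 of their 11 peaks there, led by Vom1r56 (6.16) and Vom1r79 (3.67). Both are multigene families in which copies can share reads.

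The intervals of the channel, receptor, presynaptic and calcium lists also held 6.10%. Potassium, sodium and calcium channels had 6 of 117 (5.13%). Of the 117, 12 held a peak at their own end, with Kcnk12 (10.7) the highest, where 857 of all 14390 genes were holders. Holder counts of the lists have no interval here. Neurotransmitter receptors had 3 of 88, with the kainate receptor Grik5 (4.01) and the acetylcholine receptor subunit Chrnd (3.18) as the highest holders. Presynaptic release genes had 2 of 44, Syt2 and Cplx2, whose peaks lay at the ends of Ppp1r12b (5.87) and Lnc012 (3.18), while Unc13a, the vesicle priming factor, held one of 4.73. Calcium signalling genes had 1 of 36, the store-operated channel Orai3 (5.20).

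Neurogenesis and axon guidance genes had 4 of 61 (6.56%). Of the 61, 6 were holders, where 857 of all 14390 genes were. Robo3 came first and the inhibitor of differentiation Id1 (5.75) second. Purkinje and granule cell genes had 2 of 34: Mab21l1 held its own peak (4.23), and that of the synapse organiser Cbln1 lay at the end of Zfp423 (7.15). Chromaffin and sympathetic genes, the class nearest to PC12 cells, had 2 of 37 (5.41%, 0.661 to 18.2), and both peaks lay where 2 gene ends meet. The 3' UTR peak of Phox2a, the noradrenergic homeobox factor (5.48), lay at -86 bp from its own end and 12 bp past that of Inppl1. The peak assigned to the neuropeptide gene Gal (7.24) lay 1156 bp past its end and 849 bp past that of Mtl5. The files hold no expression, so the cell type could not be checked by markers.

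The intervals of the ribosomal, oxidative phosphorylation, cell cycle, apoptosis and histone lists all held 6.10%. Cytosolic ribosomal protein genes had 2 of 67 (2.99%, 0.364 to 10.4), Rpl12 with its own peak (3.74) and Rpl10a with one at the end of Tead3 (4.70). Oxidative phosphorylation genes had 4 of 62 (6.45%), and the highest held by one of them was past the ATP synthase gene Atp5b (8.36), assigned to Baz2a. Cell cycle genes had 1 of 36, Ccnd1 (2.60), and apoptosis genes 3 of 34 (8.82%, 1.86 to 23.7), led by Bad, with Tradd assigned a peak of 6.11. Histone genes had 2 of 33, H3f3b (2.61) and Hist3h3 (2.10).

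The factors that make and destroy RNA ends had 3 of 45 (6.67%), among them Pabpn1, the nuclear poly(A)-binding protein, with a peak past its own end (4.83). Elavl3, a neuronal RNA-binding protein of the same list, held a 3' UTR peak (5.38) that was assigned to Prkcsh. Zinc finger genes had 11 of 190 (5.79%) and solute carriers 18 of 309 (5.83%), the latter led by Slc43a2 (6.87) and the citrate carrier Slc25a1 (6.42) as holders. Immune markers had 2 of 16, Csf1r (3.85) and Cd3d (3.08), and liver, muscle and keratin genes 3 of 28, with Myl1 (4.03) and Pck1 (3.18). Markers of cells other than PC12 thus had gene-end peaks in shares whose intervals (1.55 to 38.3 and 2.27 to 28.2) hold the background.

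None of the 1017 gene-end peaks overlapped a peak of the other 3 lists, α1ACT M2, empty vector 1804 or empty vector M2, which allows a share of up to 0.295% in each. These lists held 81, 272 and 244 peaks in that order, against 159452 in the annotated table, so few overlaps could arise in any class of peak. The same share over all annotated peaks is not given here, so these zeros say nothing particular to gene ends. The nearest M2 peak of the α1ACT line was 43199 bp from a gene-end peak, that assigned to Zdhhc23. The nearest empty-vector peaks were 14382 bp (1804) and 14381 bp (M2) away, both from the peak assigned to Mall. The lowest signal listed was 53.6, 14.0 and 19.0 in these lists, and their scale relative to the α1ACT 1804 list is not known. Absence from them therefore does not show that a gene-end peak depends on α1ACT. The annotated table may itself leave out peaks that overlap an empty-vector peak, in which case 2 of the 3 zeros would follow from how it was made.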

How the data were processed

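The authors deposited 1 peak list per precipitated library and 1 annotated table, on rn5. The lists have narrowPeak columns with a signal and a −log10 q-value per peak, deposited by the authors, and each peak is 56 bp wide. Tools named in the submitters' processing notes are BWA 0.7.5a, FastQC 0.11.2, HOMER, ChIPseeker and DiffBind, with no settings or order; how the inputs were used is not given there. The table's peaks were joined to the α1ACT 1804 list by chromosome and start minus 1. Signal was compared only within that list. Positions are 1-based.

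Shares carry exact 95% Clopper-Pearson intervals, counts exact Poisson intervals and medians order-statistic intervals (Python 3.11.15, pandas 2.3.3, scipy 1.17.1), checked on simulated data; a share of 0 was limited by 3 counts. Holders were searched within 5000 bp of the end for 3' UTR peaks and 3000 bp for Downstream peaks, with 28 bp of tolerance, a definition chosen after seeing the data. Genes named were the 10 highest peaks of each kind (placeholder symbols skipped), the 5 genes with most peaks, the 2 highest members of each of 20 lists, and Btg1, Grn, Atp2b2 and Cacna1a; 1 gene that this rule selects is not reported here. Holders of the highest peaks and other genes were added after seeing values. Members and lists were chosen with earlier results of these data known.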

Additional observations from a re-analysis of the deposited data

How the results depend on the processing

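The median signal of gene-end peaks and their share in the upper 10% by signal moved by less than their intervals under each alternative run on them. The gene-end share of peaks was 0.858% after merging peaks within 1000 bp, 0.736% among the upper 50% of peaks by signal, and 0.909% among the upper 10%. The share near the end of the assigned gene was 69.2% (66.3 to 72.1) within 3000 bp, 28.7% within 1000 bp and 72.8% within 5000 bp. A TSS peak was found for 53.4% of gene-end genes within 3000 bp (all genes 52.3%) and for 36.1% in the upper 50% by signal (all genes 40.1%). Another peak lay within 500 bp of 15.7% of gene-end peaks (all peaks 37.2%) and within 5000 bp of 50.5% (71.7%). Genes assigned a gene-end peak fell from 6.10% to 3.75% in the upper 50% by signal and to 4.29% when the assigned gene had to end within 3000 bp. The holders' TSS-peak share was 49.9%, and 42.9% when the holder also had to be the assigned gene, an alternative chosen after seeing the data. Of the 20 gene lists, 6 moved beyond their interval in the upper 50% by signal and 1 when the assigned gene had to end near the peak. For immediate early genes the share in the upper 50% was 4.26%. Apart from the construction of each setting, the cause was not tested. No paired analysis was possible because each group has 1 library, and no library could be left out.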

Other observations

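Gene-end peaks were unevenly spread over the chromosomes. Their share of annotated peaks was highest on chromosome 10 (120 of 6333, 1.89%, 1.57 to 2.26), followed by chromosome 12 (1.50%) and chromosome 20 (1.10%), and lowest on chromosome X (0.202%, 0.122 to 0.315), chromosome 5 (0.257%) and chromosome 14 (0.268%). The same chromosomes differed in listed genes per 1000 peaks, with 190 on chromosome 10 and 150 on chromosome 12 against 47.5 on X. Per 100 listed genes, chromosome 12 had 10.0 gene-end peaks, chromosome 10 had 9.99, X had 4.25, chromosome 14 had 3.61 and chromosome 5 had 2.56. Chromosomes 5, 14 and X thus stayed the lowest per gene, chromosome 5 although it had 101 listed genes per 1000 peaks.

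Cathepsin genes of the placental cluster were among those with 3 gene-end peaks. Cts8 had signals between 2.43 and 3.78 and Ctsr between 3.04 and 3.89, all past the end, and neither had a peak within 1000 bp of its TSS. They belong to a family of similar neighbouring copies that can share reads. The metalloreductase gene Steap2 (2.43 to 3.85) and Lppr4 (2.01 to 3.21) also had 3 peaks past the end and 0 at the TSS. These genes were picked out after their values were seen.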
